A study of Danio rerio with 13 samples.

Results

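Abcam-only regions are stretches of the zebrafish genome with a 6mA-IP-seq peak summit of the Abcam antibody at the 64-cell (64C) stage. In these regions none of the 7 IP libraries made with the SYSY antibody had a summit. The regions were chosen by the presence of summits alone, and the extent of the peaks was not used. A summit is the position of highest enrichment within a peak. The summits of all 8 IP libraries were pooled and chained into regions wherever neighbours lay at most 250 bp apart. A region was kept if it lay on chromosomes 1 to 25, ended before the last 64C SYSY summit of its chromosome, held a 64C Abcam summit and held no SYSY summit. This gave 13713 Abcam-only regions out of 63852 regions in the series, of which 61267 lay in the same range, so that 22.4% of the regions in range met the rule. The rule fixes that these regions have no SYSY summit, so that this absence is not a result. The rule did not use the score of the Abcam summits or the number of them in a region. It used place directly only to set the range, but the SYSY summits by which it excludes regions were denser near chromosome ends.

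The embryos were of the Tubingen line, with no treatment and no genetic change named in the labels, and per the study's methods embryos were pooled before gDNA was extracted. At 64C there was 1 IP library with the Abcam antibody and 1 with the SYSY antibody, each with its own input, which is gDNA of the same kind that was not pulled down. At 11, 12 and 13 h post fertilization (hpf) there were 2 replicates each with the SYSY antibody and 1 input for each stage. Both are rabbit polyclonal antibodies. Since each antibody has 1 library at 64C, a difference between the antibodies cannot be told apart from a difference between the libraries, their inputs or the embryos collected. For the same reason the comparisons within 64C carry no test across replicates, and the Wilson intervals (95%) given with shares cover counting error only.

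6mA is adenine with a methyl group on the nitrogen at position N6. In bacteria it marks the DNA of the cell itself, which protects it from restriction enzymes, and guides mismatch repair and the timing of replication. In animals it is much rarer, and its presence and role are less settled. An IP peak shows that an antibody enriched a piece of DNA, and it is not a direct reading of a modified base. A region named by 1 antibody alone is therefore a region where the second antibody, used on the same stage, gave no summit within the chaining distance. A peak of the second antibody with its summit farther away may still reach into such a region.

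Sequencing depth was not analysed here and is unknown, so that a region without a SYSY summit may be one where the SYSY libraries had too few reads for a call. The Abcam list holds 53511 summits, the 64C SYSY list 79291 and the 6 later lists between 2439 and 7582. All scores start just above 2, the −log10 of the false discovery rate cutoff of 0.01, and they are compared here only within the Abcam list. The sequence of the regions, the repeats in them and the genes around them were not analysed here.

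The Abcam-only regions made up 50.0% of the 27404 regions in range with an Abcam summit. The other 13691 Abcam regions fell into 3 classes by their SYSY summits. In 7658 both antibodies had a summit at 64C and no later library had one. In 4914 both antibodies had a summit at 64C and at least 1 library from 11 to 13 hpf had one too. In 1119 the Abcam summit was joined by a later SYSY summit but by no 64C SYSY summit. For scale, 31338 regions in range had a 64C SYSY summit only.

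The Abcam-only regions were mostly single summits. Of the 13713 regions, 11824 (86.2%, Wilson interval 85.6 to 86.8%) held 1 Abcam summit, against 48.4% (47.6 to 49.2%) of the other Abcam regions. They averaged 1.19 Abcam summits, against 2.385 in the other Abcam regions. Only 81 Abcam-only regions held 5 summits or more, against 1728 of the others. The contrast was present on each of the 25 chromosomes, where the share of single-summit regions was larger among the Abcam-only regions every time. It was widest against the regions that both antibodies marked at 64C and that a later library marked again, of which 28.4% had 1 Abcam summit. Regions that both antibodies marked at 64C only lay between, at 57.9%.

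Read in the other direction, the share of Abcam regions without any SYSY summit fell with each further Abcam summit. It was 64.1% (63.4 to 64.8%) among the 18451 regions with 1 Abcam summit and 32.8% (31.4 to 34.2%) among the 4320 with 2. With 3 summits it was 17.0%, with 4 it was 8.06% and with 5 it was 6.18%. Of the 1162 regions with 6 or more Abcam summits, 41 (3.53%, 2.61 to 4.75%) had no SYSY summit. Regions with more summits are also wider, and a SYSY summit can link Abcam summits into 1 region, which the rule does not allow in Abcam-only regions. The median width was 1 bp in Abcam-only regions and 173 bp in the other Abcam regions, and the part of width and of such links in the slope was not tested.

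The Abcam scores of the Abcam-only regions were lower. The highest score in the region had a median of 5.49, with quartiles of 3.61 and 6.99, against a median of 6.99 with quartiles of 4.95 and 10.0 in the other Abcam regions. The median was lower on all 25 chromosomes. A score of 10 or more was reached in 1245 Abcam-only regions (9.08%) and in 3616 others (26.4%). The number of summits differed too, and the highest of several scores was taken. Among regions with 1 summit the medians were 5.11 in Abcam-only regions and 5.83 in the others, and the median was lower in Abcam-only regions on 23 of the 25 chromosomes. In single-summit regions a score of 10 or more was found in 7.46% of the Abcam-only regions and in 15.5% of the others.

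The Abcam regions were also split into 10 groups of equal size by their score. In the lowest group 63.7% (61.9 to 65.5%) had no SYSY summit, and in the highest group 23.1% (21.6 to 24.8%). The share stayed between 58.6% and 66.4% over the lowest 5 groups and was 48.5% or less in the 5 groups with scores from 6.03 upwards. For regions with 1 Abcam summit the share was 68.7% in the lowest group, reached 74.96% in the sixth and was 46.2% (44.0 to 48.5%) in the highest. Tied scores were split between groups in order of chromosome and position. Among single-summit regions the sixth group ended, and the seventh, at 58.8%, began, at the same score of 5.83. Many regions tie in score. Of the Abcam-only regions, 56.7% carry 1 of their 10 commonest scores, and of the other Abcam regions 29.2% carry 1 of their own 10 commonest.

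**Figure D1:**
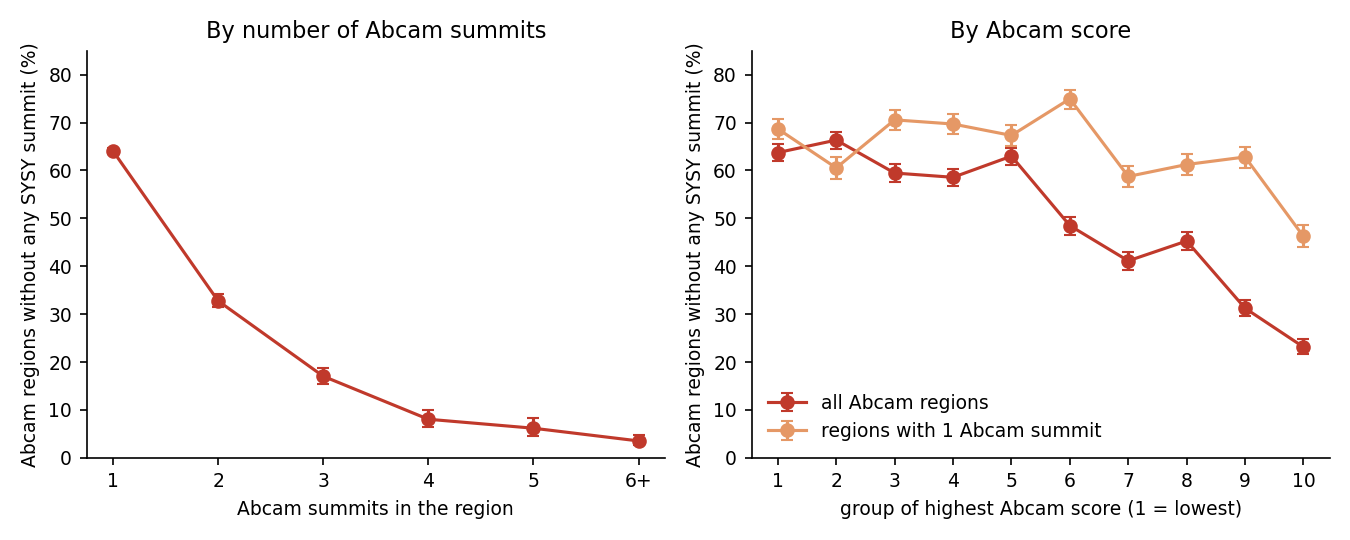
Share of the 27404 Abcam regions in range that hold no SYSY summit of any library (y axis, %), by the number of Abcam summits in the region (left) and by group of the highest Abcam score (right; group 1 has the lowest scores). Bars are 95% Wilson intervals, for counting error. The share is 64.1% with 1 summit and 3.53% with 6 or more, and in single-summit regions it is 46.2% in the highest score group.

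The 2672 gaps between neighbouring Abcam summits within these regions had a median of 108 bp (quartiles 83 and 157 bp). With no SYSY summit to link them, these gaps cannot exceed the chaining distance of 250 bp, a limit that the other Abcam regions do not have, so that the gaps of the classes were not compared. Of the 14516 Abcam peaks with a summit in an Abcam-only region, 17 had summits in more than 1 such region and 15 also had a summit in a region of another class.

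Later summits can be read only from a wider set, since the rule requires that no later library has a summit. All later libraries were made with the SYSY antibody. For regions with an Abcam but no 64C SYSY summit, a change with stage therefore cannot be told apart from the change of antibody. Of all 14832 regions in range with an Abcam summit and no 64C SYSY summit, 1119 (7.54%, Wilson interval 7.13 to 7.98%) had a summit of at least 1 library from 11 to 13 hpf. Of the 12572 regions that both antibodies marked at 64C, 4914 did (39.1%, 38.2 to 39.9%). Over all Abcam regions in range the share was 22.0%. Of the 32893 regions with a 64C SYSY summit and no Abcam summit, 1555 did (4.73%, 4.50 to 4.96%). Regions that only 1 antibody marked at 64C thus had a later SYSY summit less often than those that both marked. The regions of both antibodies were also wider. Width runs from the first to the last summit of any library, so that regions with summits of more libraries tend to be wider by construction. The median width of regions of both antibodies was 124 bp without a later summit and 374.5 bp with one, against 1 bp in Abcam-only regions. A later summit can also link an Abcam and a 64C SYSY summit into 1 region. The part of width and of such links in these shares, and in those of each library below, was not tested.

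Each of the 6 later libraries had its largest share in the regions of both antibodies. For regions with an Abcam summit but no 64C SYSY summit, the share with a summit of 11 hpf was 2.90% in replicate 1 and 1.38% in replicate 2. For 12 hpf it was 1.36% in replicate 1 and 1.75% in replicate 2, and for 13 hpf 1.51% in replicate 1 and 0.573% in replicate 2. Regions marked by both antibodies reached 24.0% in replicate 1 of 11 hpf and 15.7% in replicate 2. They reached 12.9% in replicate 1 of 12 hpf and 15.5% in replicate 2, and 12.2% in replicate 1 of 13 hpf and 8.93% in replicate 2. The mean over the 6 libraries was 1.58% ± 0.758 for regions with an Abcam summit but no 64C SYSY summit, 14.9% ± 5.12 for regions marked by both, and 1.48% ± 0.536 for regions with only the 64C SYSY summit (SD, n = 6 libraries each). No library of the first set reached the lowest value of the second. The first and the third set overlapped in range. Regions with only the 64C SYSY summit ran from 0.845% in replicate 2 of 13 hpf to 2.46% in replicate 1 of 11 hpf. The study calls the replicates biological, and the SD spans 3 stages as well as replicates. For the regions of both antibodies the stage mean was 19.9% for 11 hpf, 14.2% for 12 hpf and 10.6% for 13 hpf. In the same order of stages it was 2.14%, 1.55% and 1.04% for regions with an Abcam summit but no 64C SYSY summit. Regions with only the 64C SYSY summit had means of 1.93%, 1.46% and 1.07%. List length differed too, from 7582 summits for replicate 1 of 11 hpf down to 2439 for replicate 2 of 13 hpf. The part of list length in these stage means was not tested.

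Among the regions with an Abcam summit and no 64C SYSY summit, those with a later summit were spread thinly. Of the 1119, 908 had a summit in 1 later library and 164 in 2, and 2 had one in all 6. Of the regions marked by both antibodies, 327 had a summit in all 6. A higher Abcam score went with a later summit in both sets. With an Abcam score under 5, 4.99% (4.48 to 5.54%) of the regions without a 64C SYSY summit had a later one, and with a score of 10 or more 15.1% (13.4 to 17.1%) did. In regions of both antibodies these shares were 24.1% and 55.5%. The score groups were not split by number of Abcam summits or by width, and the part of either was not tested. With a single Abcam summit, 6.35% of the regions without a 64C SYSY summit and 23.9% of those with one had a later summit.

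**Figure D2:**
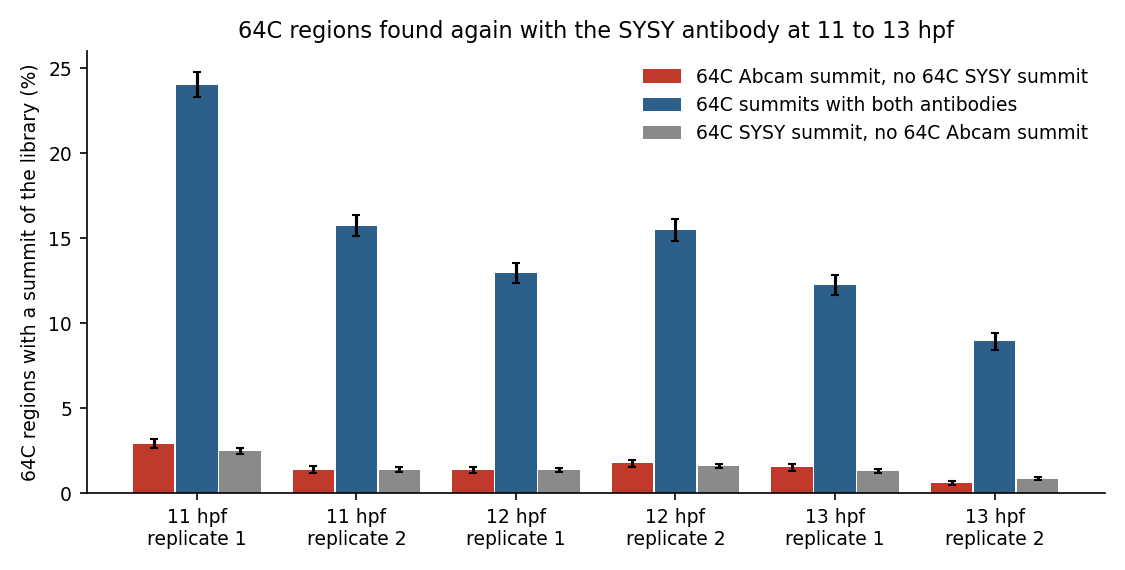
Share of 64C regions in range that hold a summit of each of the 6 later SYSY libraries (y axis, %). Bars show regions with an Abcam but no 64C SYSY summit, with both, and with a 64C SYSY but no Abcam summit, and error bars are 95% Wilson intervals. In each library the regions of both antibodies stand far above the other sets, from 8.93% to 24.0%, against 0.573% to 2.90% for regions with an Abcam but no 64C SYSY summit.

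The median distance from an Abcam-only region to the nearest summit of any SYSY library was 8137 bp, with quartiles of 1926 and 22815 bp. The rule keeps this distance above 250 bp. The median was 2634 bp with chaining within 100 bp, and 19198 bp with summits at or above the median score of each library. To the nearest 64C SYSY summit it was 8883 bp and to the nearest later summit 50122 bp. Taken one library at a time, the median distance to the nearest later summit ran from 103067 bp for 11 hpf replicate 1, the longest of the later lists, to 338531 bp for 13 hpf replicate 2, the shortest. Of the Abcam-only regions, 1209 (8.82%) had a SYSY summit within 500 bp, 2369 (17.3%) within 1000 bp and 7489 (54.6%) within 10000 bp.

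Few regions had their nearest SYSY summit within 50 bp of the limit of the rule. The number of Abcam-only regions changed with the chaining distance, to 21017 within 100 bp and 11571 within 500 bp. That distance also sets which Abcam summits are joined to each other, and the part of this in the change was not tested. Of the other Abcam regions, 12752 of 13691 had a SYSY summit within 100 bp of an Abcam summit. In 165 the nearest lay in the last 50 bp inside the chaining distance, and these had a median score of 4.95 and 1 Abcam summit in 86.1% of cases. In the first 50 bp outside it, 287 Abcam-only regions had their nearest SYSY summit, with a median score of 4.75 and 1 summit in 78.0%. The distance went with the place on the chromosome, as did the density of SYSY summits. Any position near an end thus tends to lie closer to a SYSY summit, so that the shares below are not read as a trait of the Abcam-only regions. Of the Abcam-only regions with a SYSY summit within 500 bp, 34.0% lay in the first or last 2 Mb of a chromosome, and of the 1156 regions more than 50 kb from any SYSY summit, 2.16% did. Their median scores were 5.11 and 5.83.

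Along the chromosomes, the Abcam-only regions lay less often at the ends than the other Abcam regions. The first and last 2 Mb, with the last summit in any of the 8 lists taken as the chromosome end, make up 7.17% of the length in range. They held 2562 (18.7%, Wilson interval 18.0 to 19.3%) of the Abcam-only regions, against 33.4% (32.6 to 34.2%) of the other Abcam regions and 21.4% of all regions in range. Of the other Abcam regions, those marked by both antibodies at 64C and again later had the largest share at the ends, at 41.6%, those marked by both at 64C only had 29.4%, and those with an Abcam and a later summit only had 25.1%. The regions with a 64C SYSY summit only had 17.0% (16.6 to 17.5%), slightly under the Abcam-only regions.

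The share at the ends was smaller for Abcam-only regions than for the other Abcam regions on each of the 25 chromosomes. It ran from 12.0% on chromosome 3, where the others had 18.3%, to 27.7% on chromosome 25, where the others had 37.0%. The gap was widest on chromosome 17, with 16.2% for Abcam-only regions and 42.2% for the others. Among regions with 1 Abcam summit the shares were 18.1% for Abcam-only regions and 29.0% for the others, again in the same direction on all 25 chromosomes. The 64C SYSY list does not cover 5 chromosomes to their end. On these the rule leaves out part or all of the last 2 Mb for every class. Where all of it is left out, the share comes from the first 2 Mb alone.

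By distance from the nearer chromosome end, the density of Abcam-only regions was 39.0 per Mb in the outermost 0.5 Mb, 20.2 per Mb from 1 to 2 Mb, 9.77 per Mb from 5 to 10 Mb and 7.79 per Mb beyond 20 Mb. Regions marked by both antibodies at 64C had 67.2, 34.1, 8.82 and 4.12 per Mb in the same zones. Towards the interior the regions of both antibodies thus thinned out more steeply, and beyond 5 Mb the Abcam-only regions were the denser class. Accordingly, the share of Abcam regions without a SYSY summit was 35.0% (33.2 to 36.9%) in the outermost 0.5 Mb and 62.5% (61.0 to 63.9%) beyond 20 Mb. The density of 64C SYSY-only regions was 94.9 per Mb in the outermost zone and 19.5 per Mb beyond 20 Mb. Near the ends the rule thus had more SYSY summits by which to exclude an Abcam region. The part of this in the shares at the ends and by zone was not tested.

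**Figure D3:**
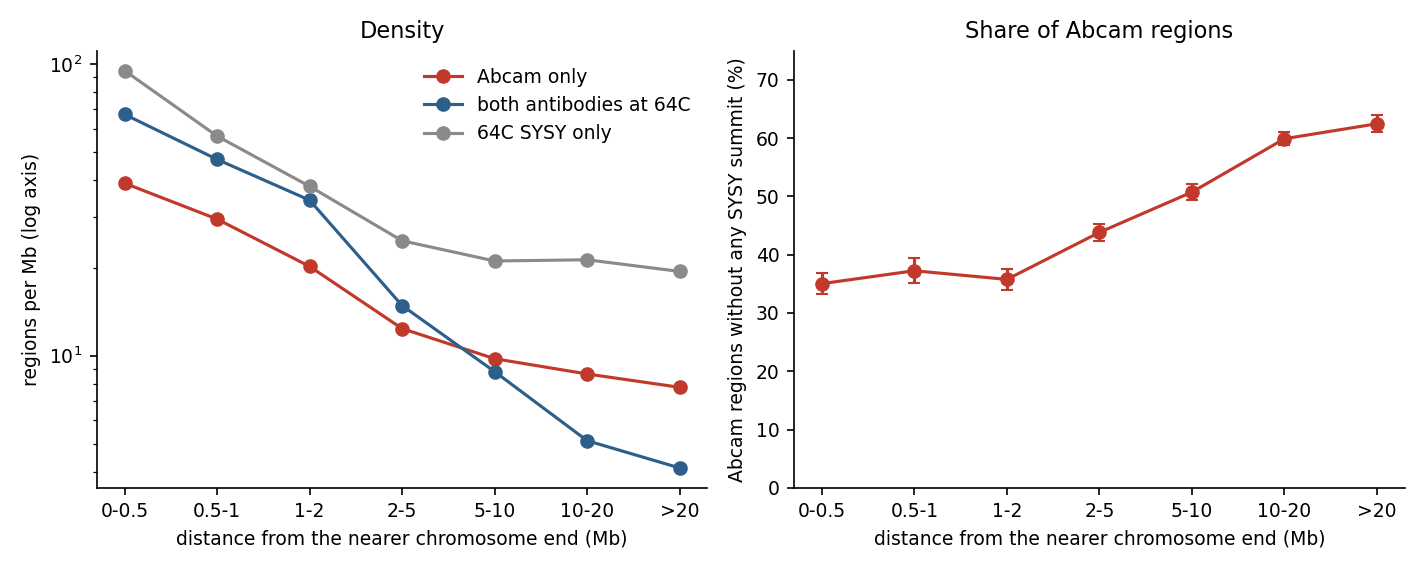
Density of regions per Mb (left, log axis) for Abcam-only regions, regions of both antibodies at 64C and 64C SYSY-only regions, and share of Abcam regions without any SYSY summit (right, %, with 95% Wilson intervals), by distance from the nearer chromosome end in Mb. The density of Abcam-only regions is 39.0 per Mb next to the ends and 7.79 per Mb beyond 20 Mb, while their share of Abcam regions is 35.0% and 62.5%.

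Over the 1322 Mb in range there were 10.4 Abcam-only regions per Mb, and chromosomes averaged 10.4 ± 1.16 (SD over 25 chromosomes). Chromosome 13 was the densest at 12.1 per Mb, and chromosome 4 the least dense at 6.55 per Mb, followed by chromosome 22 at 8.03 per Mb. Relative to the mean of all chromosomes, chromosome 4 had 0.632 for Abcam-only regions and 0.879 for the other Abcam regions. The widest differences in the opposite direction were on chromosomes 3 and 7. Chromosome 3 had 0.901 for Abcam-only regions and 0.728 for the others, and chromosome 7 had 1.07 and 0.878. On chromosome 4 Abcam-only regions made up 41.9% (38.8 to 45.0%) of the Abcam regions, the smallest share of the 25 chromosomes, and on chromosome 3 they made up 55.4% (52.3 to 58.3%), the largest. Both intervals overlap those of other chromosomes. With whole chromosomes counted, chromosome 4 had 0.752 of the mean density, and the share of Abcam-only regions at the ends was 20.04%.

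The long arm of zebrafish chromosome 4 is known to be rich in repeats and heterochromatin and poor in ordinary protein-coding genes. Sequence past 61983244 on chromosome 4 was outside the range and is not in the windows below. Within the range, the deficit on chromosome 4 lay in its second part. Up to 30 Mb it had 316 Abcam-only regions, 52.0% (48.0 to 55.9%) of the 608 Abcam regions there. From 30 to 60 Mb it had 86, 24.5% (20.3 to 29.3%) of 351. In windows of 10 Mb the density of Abcam-only regions was 14.5, 9.20 and 7.90 per Mb over the first 30 Mb and 3.00, 2.40 and 3.20 per Mb over the next 30 Mb. The other Abcam regions had 19.0, 4.90 and 5.30 per Mb and then 7.60, 10.3 and 8.60 per Mb. The density of SYSY summits, by which the rule excludes Abcam regions, was not counted in these windows, and its part in the values was not tested. Past 30 Mb, Abcam signal without a SYSY partner had a lower density than Abcam signal with a partner in each of these 3 windows. The longest gap between neighbouring Abcam-only regions on any chromosome lies there too, from 43293200 to 45363453 on danRer10 chromosome 4, over 2070253 bp.

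**Figure D4:**
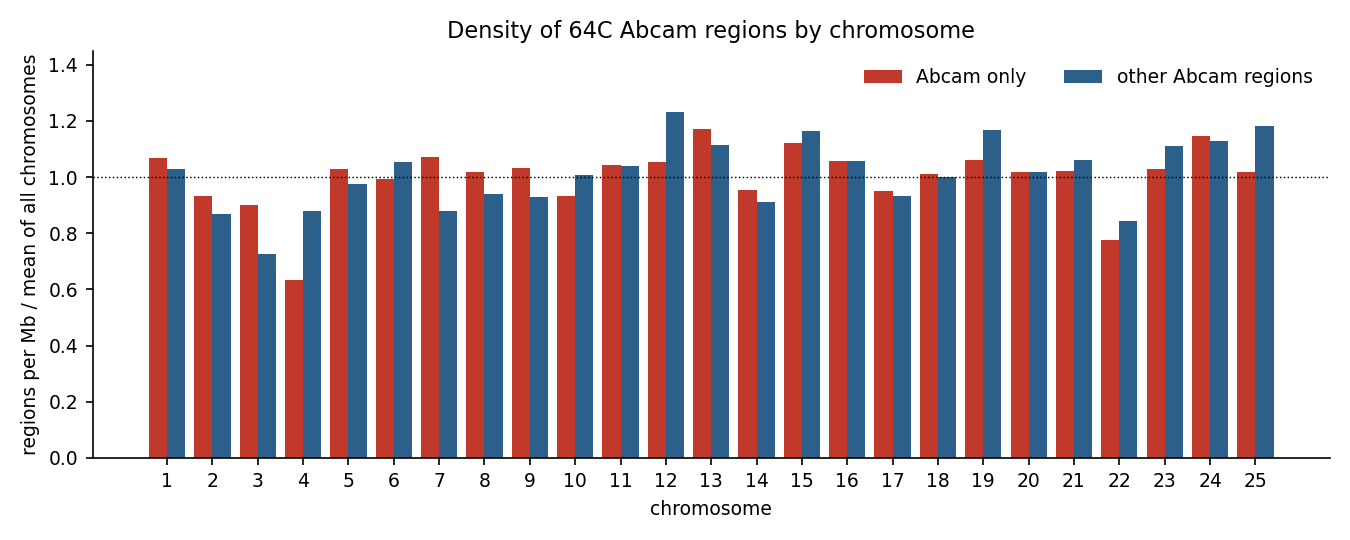
Density of Abcam-only regions and of the other Abcam regions on each chromosome, as regions per Mb divided by the mean of all chromosomes (y axis), within the range examined. Abcam-only regions lie between 0.632 on chromosome 4 and 1.17 on chromosome 13, and the other Abcam regions between 0.728 on chromosome 3 and 1.23 on chromosome 12.

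The Abcam-only regions were spread over the genome, with a few dense spots. Of 13236 bins of 100 kb in range, 7140 (53.9%) held at least 1 and 3804 held exactly 1. The median gap between neighbours was 46570 bp, and 1163 gaps (8.50%) were at most 1 kb long. Bins with 5 or more Abcam-only regions numbered 406 (3.07% of bins) and held 18.7% of the regions, and 25 bins had 10 or more.

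The 5 bins with the most Abcam-only regions lie on chromosomes 3, 5, 14, 3 and 13. The first, on chromosome 3 from 37000001 to 37100000, had 24 of them within 29.8 kb, from 37008001 to 37037790, with a median score of 6.02 and a highest score of 11.9. The bin had 34 Abcam summits, against 4 of the 64C SYSY list and 0 of the later libraries. The second, on chromosome 5 from 36100001 to 36200000, had 20 regions over 87.9 kb, with a median score of 6.41 and a highest score of 19.9. It had 43 Abcam summits, against 11 of the 64C SYSY list and 3 of the later libraries.

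On chromosome 14 the bin from 29700001 to 29800000 had 18 regions within 37.2 kb, with a median score of 5.15. It held 26 Abcam summits, against 7 of the 64C SYSY list and 1 of the later libraries. The bin on chromosome 3 from 8600001 to 8700000 had 15 regions and the most SYSY summits of the 5 bins. There 41 summits of the Abcam list stood against 21 of the 64C SYSY list and 24 of the later libraries. The bin on chromosome 13 from 32400001 to 32500000 had 15 within 13.6 kb, with a median score of 6.50 and a highest of 16.0. It held 27 Abcam summits, against 5 of the 64C SYSY list and 1 of the later libraries.

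Consecutive Abcam-only regions with no region of another class between them formed 9309 runs, of which 6477 (69.6%) were a single region and 8 had 10 regions or more. The longest run in regions lay on chromosome 7 from 51491153 to 51768669, with 26 regions over 277.5 kb and a median score of 4.70. The run on chromosome 3 from 37014993 to 37037790, in the bin already described, packed 21 regions into 22.8 kb. Runs of 11 regions lay on chromosome 2 from 30346125 to 30361978, within 15.9 kb, and on chromosome 24 from 40307260 to 40454000, within 146.7 kb.

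The highest Abcam scores of the whole list were found in Abcam-only regions, at a single locus. On chromosome 25 between 294381 and 313744, 10 Abcam summits in 8 peaks lay within 19.4 kb, and all 10 were Abcam-only regions of 1 summit each. The summits at 294381, 294941 and 301630 had the top score of the list, 70.6. Those at 298039, 298297 and 303185 had 67.6, 65.8 and 58.1, and those at 311848, 302194 and 306062 had 48.9, 42.9 and 38.8. The last, at 313744, had 11.9. These 9 summits above 38 are the only ones above that score among all 53511 of the Abcam list. Outside the locus, the next Abcam-only region had a score of 23.1 and lies on chromosome 17 at 13004608, and the highest of the other Abcam regions in range had 37.0.

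No SYSY library had a summit within 50 kb of any of these 9 highest summits. The nearest 64C SYSY summits were at 238218 and 363507, leaving 125.3 kb without one, and the nearest later SYSY summit was 56988 bp from the first of the 10. The neighbouring summits of the locus were 258 to 5786 bp apart, with a median gap of 1896 bp, so that each formed a region of its own under the chaining distance. The score is a measure of significance against the Abcam input. What sequence lies at the locus was not analysed here.

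The Abcam-only region with the most summits lies on chromosome 1 from 10958853 to 10960141. It is 1 peak with 11 summits over 1289 bp, whose scores lay between 4.70 and 11.9, and the nearest SYSY summit was 50226 bp away. The next, on chromosome 5 from 69249325 to 69250581, had 10 summits in 4 peaks with a highest score of 12.9. Regions on chromosome 16 from 48569548 to 48570296 and on chromosome 20 from 2524813 to 2525726 had 9 summits each, in 1 peak, with highest scores of 10.2 and 9.11. The region on chromosome 16 had its nearest SYSY summit 26059 bp away, while that on chromosome 20 had a 64C SYSY summit 352 bp away. The next region by summits, on chromosome 25 from 33849327 to 33850177, had 8 summits in 3 peaks with a highest score of 7.83, and a 64C SYSY summit 549 bp away. The other 5 of the first 10 had 7 summits each and highest scores of 9.37 to 10.6, and their distances to the nearest SYSY summit ran from 418 bp on chromosome 13 to 23783 bp on chromosome 22.

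The 5 Abcam-only regions farthest from any SYSY summit were all single summits. The first lay on chromosome 22 at 9705664, 255497 bp from the nearest SYSY summit, with a score of 11.9. Its neighbour at 9700141 was 249974 bp away with a score of 2.57. The others lay on chromosome 5 at 31290281, 208963 bp away with a score of 8.15, on chromosome 17 at 25453791, 202429 bp away with a score of 2.57, and on chromosome 2 at 21691701, 197147 bp away with a score of 5.11. The scores of these 5 thus lay between 2.57 and 11.9.

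**Figure D5:**
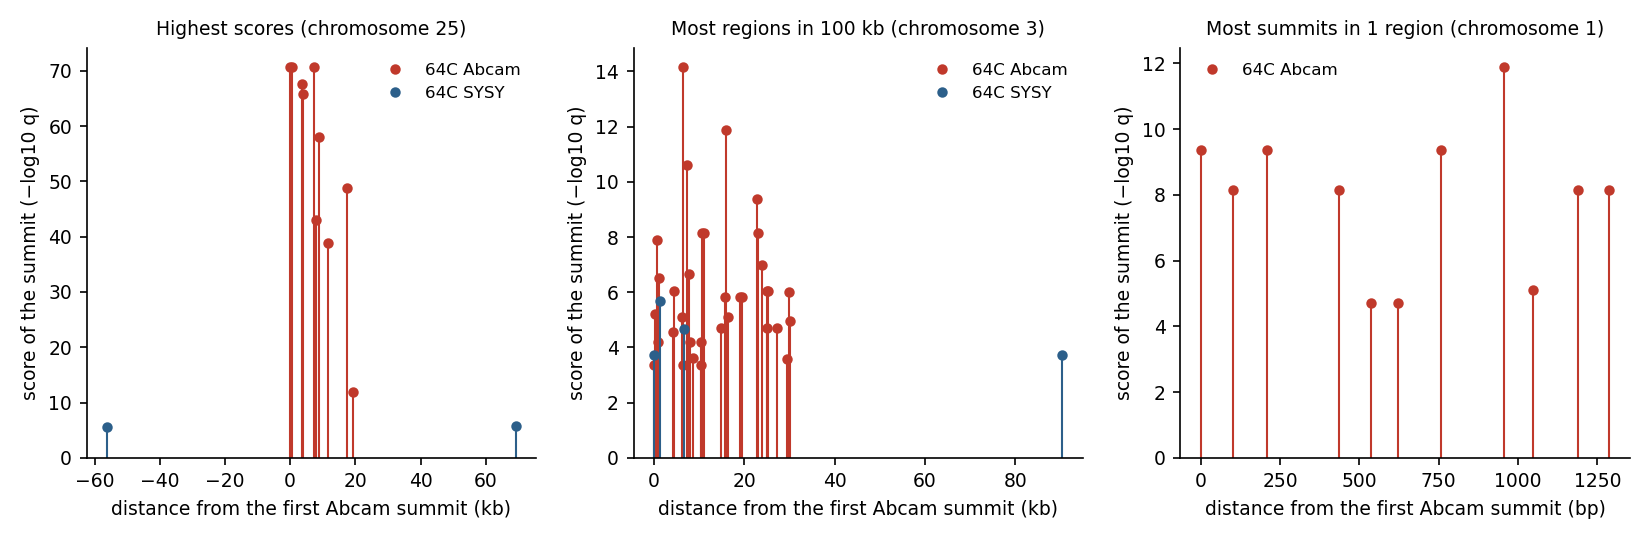
Summits at 3 loci, with the score of each summit (y axis, −log10 of the q-value) against its distance from the first Abcam summit shown (x axis, kb or bp): the locus on chromosome 25 with the highest scores and the SYSY summits on either side, the 100-kb bin on chromosome 3 with the most Abcam-only regions, and the region on chromosome 1 with the most summits. Scores were not compared between libraries. The 10 Abcam summits on chromosome 25 reach 70.6 with no SYSY summit among them.

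Stretches called dense in Abcam summits alone, by the definition that follows, lay outside the range of the rule. A bin was called dense in 1 list if it held 20 or more of its summits, and these outnumbered the summits of the second 64C list plus 1 by a factor of 10. By this rule 46 bins of 100 kb were dense in the Abcam list alone. Of these, 30 lie on unplaced scaffolds and 16 on numbered chromosomes past the last 64C SYSY summit, and 0 lie in the range examined here. The 64C SYSY list holds 1 summit off the numbered chromosomes and none past its own last summit. In both places 20 Abcam summits were therefore enough for the call, which says nothing about the antibodies. The rule leaves out both of these places, so that the absence of these bins from the Abcam-only regions was fixed beforehand. The 140 bins dense in the 64C SYSY list alone held 42 of the 13713 Abcam-only regions, where the range has 13236 bins. Such bins have few Abcam summits by definition, so that this low count is not a result.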

How the data were processed

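IP-seq for 6mA was run on zebrafish embryos of 8 IP and 5 input samples. Per the study's methods, 50-bp single-end reads were mapped to danRer10 with Bowtie. A read with several best matches went to a randomly picked one. Peaks came from MACS, with the matching input as background and a false discovery rate cutoff of 0.01. The authors deposited a summit list for each IP library, whose score is the −log10 of the q-value. Input data were not analysed here, and depth is unknown. From these lists, summits (counted from 1) were chained within 250 bp and each region was classed by the lists present in it. A region was placed by its midpoint and scored by its highest Abcam summit. Chromosome length was the span to the last 64C SYSY summit. No test was run, since each antibody has 1 library at 64C, and shares carry 95% Wilson intervals. The classing code was checked on simulated lists. Their regions lay far apart with summits close together, so that chaining could neither merge nor split them. Named are the 10 regions with the highest score, the 10 with most summits, the 5 farthest from a SYSY summit and the 5 bins of 100 kb with most regions. Runs of regions, windows on chromosome 4 and the tenth summit of the chromosome 25 locus were added after seeing the data. Regions and rules were chosen with earlier results of these data known. Alternatives varied the chaining distance, score cutoff, summits per peak, libraries, range and end size. Planned results on sequence, repeats and genes were not run, since no danRer10 genome or annotation was used here. Software was Python 3.11.15 with matplotlib 3.10.9, SciPy 1.17.1, pandas 2.3.3 and NumPy 2.4.6.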

Additional observations from a re-analysis of the deposited data

Results flagged for a closer look

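Abcam summits without any SYSY summit were also found in sequence outside the range compared above, where the 64C SYSY list holds 1 summit off the numbered chromosomes and none past its own last summit. On unplaced scaffolds there were 1136 such regions, 68.8% of the 1651 regions with an Abcam summit there, with a median highest score of 5.83 and 1 summit in 72.8% of cases. Past the last 64C SYSY summit of a numbered chromosome there were 461, 71.3% of 647, with the same median score and 1 summit in 71.1%. Of these 461, 458 lie on the 5 chromosomes where that list stops short. These regions were used in no comparison. Past its own last summit the 64C SYSY list cannot exclude a region, so that the shares there were not set against those in range.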

How the results depend on the processing

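No paired analysis was possible because the results come from no test and each antibody has 1 library at 64C. Of 156 alternative values for 9 results, 102 stayed within the counting interval (or within 1.5 times, for the number of regions) and 54 moved. The Abcam-only regions kept a smaller share at the chromosome ends and a lower median score than the other Abcam regions under each alternative run, and the causes of the shifts were not tested beyond the construction of each setting. With chaining within 100 bp there were 21017 Abcam-only regions, 53.7% of Abcam regions, 92.1% with 1 summit, a median score of 5.21, 23.4% at the ends (difference -13.0 points) and a median SYSY distance of 2634 bp. With 500 bp these were 47.9%, 85.03%, 5.57, 16.6% and 10749 bp. With 1000 bp they were 46.0%, 84.1%, 5.82, 14.1% (difference -16.9 points) and 12692 bp. With summits at or above the median score of each library, 61.97% of Abcam regions were Abcam-only, the median score was 7.76 (difference -1.33), the end share 20.3% (difference -17.8 points) and the distance 19198 bp. With that cutoff for Abcam alone there were 6934 regions, 42.4% of Abcam regions, 91.2% with 1 summit, a median score of 6.99 (difference -2.01) and 16.6% at the ends (difference -17.5 points). With 1 summit per peak, 95.4% had 1 summit, 19.5% lay at the ends and the distance was 7198 bp. With exclusion by the 64C SYSY library alone, the share was 54.1%, with 85.1% of 1 summit and a median score of 5.57 (difference -1.45). The distance, here to the 64C SYSY list alone, was 8706 bp, where the Abcam-only regions had 8883 bp to that list. Where a later stage excluded a region only if both replicates had a summit, the share was 53.8%, with 85.3% of 1 summit and a distance of 6672 bp. With whole chromosomes the end share was 20.04% and the relative density on chromosome 4 was 0.752. Ends of 1 Mb held 11.5% (difference -9.02 points) and ends of 5 Mb 32.0% (difference -18.5 points). Chosen after seeing the data, single-summit regions alone gave a share of 64.1%, a median score of 5.11 (difference -0.72), a distance of 8692 bp and an end difference of -10.9 points, and leaving out bins dense in the 64C SYSY list moved none of the 9. The 2 differences were also added after seeing the data. Without each later library in turn, the number of regions ran from 13752 to 14047, their share from 50.2% to 51.1%, the 1-summit share from 86.0% to 86.2%, the median score from 5.49 to 5.53, the end share from 18.7% to 18.9%, the chromosome 4 density from 0.623 to 0.633, the distance from 8128 to 8267 bp, the end difference from -14.9 to -14.7 points and the score difference from -1.50 to -1.46.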
